A study of Homo sapiens with 13 samples.

Results

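The genes described here have at least 2 separate transcription starts at which the authors listed a peak of H3K27Ac, the acetylation of lysine 27 on histone H3. A gene was a member when its NM_ transcripts (RefSeq protein-coding models) had starts on 1 chromosome at least 5000 bp apart and the peaks assigned to them had different values of M, the authors' rescaled log2 ratio of library 1 over library 2. There were 375 such genes among 12785 genes with an NM_ start listed for H3K27Ac, or 2.93%. The members were thus chosen by their H3K27Ac peaks and M, and the H3K27Ac differences between the starts of a gene are given as a description.

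The cells were TE-7, an established human esophageal epithelial cell line, kept without interleukin-13 (IL-13), a type 2 cytokine, or given 100 ng/ml of it. RNA was sequenced from control and IL-13 cells at 2, 6 and 24 hr, with 1 library for each treatment and time. Chromatin immunoprecipitation with sequencing of H3K27Ac, H3K9Ac and H3K4me3 was done on control cells and on cells given IL-13 for 6 hr, with 1 library for each mark and treatment, and input DNA was also sequenced. No agent other than IL-13 separates the groups in the labels, and all groups are the same single line. Each group is a single library, so differences have no replicate check and no p-value was computed for them. The sources used here do not say which library of a mark was the treated one, so no direction of treatment is given for any peak. Where signs of M are set side by side between marks, the order of the libraries is assumed to be the same in each mark.

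Many human genes have more than 1 promoter. The alternative promoters of a gene give transcripts with different first exons, and in some genes proteins with different amino-terminal ends, and cell types can use them to different extents. H3K4me3 is found mainly at promoters, H3K9Ac at active promoters, and H3K27Ac at active promoters and at active enhancers. A peak listed at a start can therefore be a promoter or an element near it, and the peak's own position was not used here, only the start to which the authors assigned it.

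The promoter sequences of 3 members are shown because H3K27Ac differed between their starts and both starts could be matched in the reference. TP73 encodes p73, a transcription factor of the p53 family, and an internal promoter of the gene gives isoforms without the transactivation domain. ACOT7 encodes an acyl-CoA thioesterase, which cleaves fatty acyl-CoA, and CD59 encodes a surface protein that protects cells from complement lysis. Each line gives the 250 bases before the start, 5′ to 3′, from RefSeq on GRCh38.p14, with CpG dinucleotides in capitals.
TP73 upstream, chr1:3652266-3652515 (+ strand): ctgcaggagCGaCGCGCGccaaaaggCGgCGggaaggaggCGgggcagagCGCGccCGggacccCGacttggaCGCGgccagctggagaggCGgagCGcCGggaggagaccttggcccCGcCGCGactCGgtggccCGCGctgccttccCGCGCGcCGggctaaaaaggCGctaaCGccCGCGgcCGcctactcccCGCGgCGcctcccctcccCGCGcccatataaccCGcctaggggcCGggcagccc
TP73 downstream, chr1:3697796-3698045 (+ strand): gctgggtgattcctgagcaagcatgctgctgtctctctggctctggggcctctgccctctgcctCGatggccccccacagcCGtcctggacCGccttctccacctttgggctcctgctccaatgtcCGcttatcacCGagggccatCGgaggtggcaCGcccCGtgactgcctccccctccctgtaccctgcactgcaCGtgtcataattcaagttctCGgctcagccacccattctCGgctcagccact
ACOT7 upstream, chr1:6385769-6386018 (- strand): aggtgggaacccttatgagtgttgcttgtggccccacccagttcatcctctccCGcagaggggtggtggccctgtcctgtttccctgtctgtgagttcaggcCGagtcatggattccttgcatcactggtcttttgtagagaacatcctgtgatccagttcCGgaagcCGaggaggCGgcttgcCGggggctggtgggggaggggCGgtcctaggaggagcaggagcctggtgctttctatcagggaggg
ACOT7 downstream, chr1:6358930-6359179 (- strand): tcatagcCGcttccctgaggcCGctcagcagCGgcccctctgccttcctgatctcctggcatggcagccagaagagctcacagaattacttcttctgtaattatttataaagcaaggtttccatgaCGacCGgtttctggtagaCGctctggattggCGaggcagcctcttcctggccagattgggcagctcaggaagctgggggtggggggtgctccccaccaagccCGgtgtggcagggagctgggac
CD59 upstream, chr11:33736480-33736729 (- strand): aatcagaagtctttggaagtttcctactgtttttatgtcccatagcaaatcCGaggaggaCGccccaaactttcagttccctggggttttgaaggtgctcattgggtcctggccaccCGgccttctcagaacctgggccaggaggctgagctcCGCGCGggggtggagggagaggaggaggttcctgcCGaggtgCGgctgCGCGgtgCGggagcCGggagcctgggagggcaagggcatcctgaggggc
CD59 downstream, chr11:33722728-33722977 (- strand): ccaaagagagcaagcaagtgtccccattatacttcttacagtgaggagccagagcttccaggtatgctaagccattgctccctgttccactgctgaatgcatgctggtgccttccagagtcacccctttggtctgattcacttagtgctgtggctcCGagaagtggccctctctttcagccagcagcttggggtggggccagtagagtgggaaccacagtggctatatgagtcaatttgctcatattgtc
The TP73 upstream window holds 38 CpG dinucleotides and its downstream window 11. The CD59 upstream window holds 12 and its downstream window 1, whereas the ACOT7 windows hold 7 and 8. The authors' deposited tables list H3K4me3 at the upstream start of TP73 and of CD59 and not at the downstream start, and at neither of the compared starts of ACOT7. The STAT6 form of the STAT motif, TTC and GAA with 4 bases of any kind between them, was in none of the 6 windows on either strand. TTCNNNGAA, the form bound by other STAT factors, was in the CD59 upstream window, and TATAAA was in the ACOT7 downstream window. Among all 35097 promoter windows of this length, 5.38% hold the STAT6 form, 6.56% hold TTCNNNGAA and 10.7% hold TATAAA. A match is a description of the letters and not of a bound site. The deposited starts are on hg19, so starts were matched to these promoters by the spacing between the starts of a gene, which differed by 49 bp for TP73, 40 bp for ACOT7 and 0 bp for CD59. Such a match was found for 71 of 249 compared genes, too few for a count of CpG or motifs over the members.

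The markers of the labelled cell type were present: 8 of 8 epithelial markers reached an RPKM (reads scaled by gene length and sequencing depth) of at least 1, with a summed RPKM of 3172 to 4637 over the 6 libraries. Of the other markers, 1 of 6 for fibroblasts, 1 of 5 for leukocytes and 1 of 4 for endothelial cells reached 1 RPKM, with summed values of at most 5.39. Brain markers summed to 10.3 RPKM in the control library at 2 hr and to at most 0.198 in the others. Results at 2 hr rest on that control library, and its part in them was not tested. Of all 13590 NM_ starts with an H3K27Ac level of at least 30, 4.72% differed at least 2-fold between the libraries, 2.98% with library 1 higher and 1.74% with library 2 higher. A level here is on the linear scale of the authors' values and was computed for each library from M and from A, the authors' mean log2 level of the 2 libraries.

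The members held 946 distinct starts. There were 245 genes with 2 starts, 86 with 3 and 33 with 4, and BCAR1 had 7 while PLEC and PLEKHG5 each had 8. The starts of a gene spanned a median of 30332 bp, with quartiles of 13005 and 78207 bp. In all, 1802 genes had at least 2 distinct NM_ starts, but in only 400 of them were any of these 5000 bp or more apart. At the distance threshold, the starts of RAET1E were 5025 bp apart and those of DDX19B 5030 bp, with M of −0.18 and −2.92 and of 0.05 and 0.13. Just outside it, the starts of UNC45A were 4805 bp apart, with M of −0.27 and 0.16, and those of PTPN6 were 4694 bp apart, with M of 0.23 and −0.10.

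For each gene the strongest peak of each start, the one with the highest level in its higher library, was taken, and the pair of starts that differed most in M was compared where both had a level of at least 30 in the higher library. This left 249 genes. A peak here is an entry of the authors' values for a start. Some entries shared A but not M, as at BCAR1, where starts with an A of 8.69 had M of 0.67 and −0.06. An entry may thus combine several peaks, and its levels may mix them, which was not tested. Another 120 had fewer than 2 such starts 5000 bp apart, and in 6 the strongest peaks at the separate starts had identical M. The compared starts lay 5025 to 729099 bp apart, with a median of 27431 bp. Identical peak values were listed at starts up to 9967 bp apart, where only starts under 20000 bp apart were read as sharing a peak. Whether a single peak was assigned farther than that was not examined. Of the 249 pairs 46 were under 10 kb apart.

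The starts of a gene differed more in how strongly they were marked than in how the libraries compared. The size of the difference in A had a median of 1.00, or 2-fold, with quartiles of 0.44 and 1.59. It was at least 1 in 125 of 249 genes, at least 2 in 44 and at least 3 in 11. The difference in M had a median size of 0.42, with quartiles of 0.21 and 0.79, was under 0.2 in 56 genes and at least 1 in 50. The stronger start was the upstream one in 130 genes and the downstream one in 113, and 6 were equal. Neighbouring NM_ starts of different genes, 5000 to 100000 bp apart, differed by a median of 0.89 in A and 0.37 in M, so differences of this size are not particular to starts of 1 gene.

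**Figure D1:**
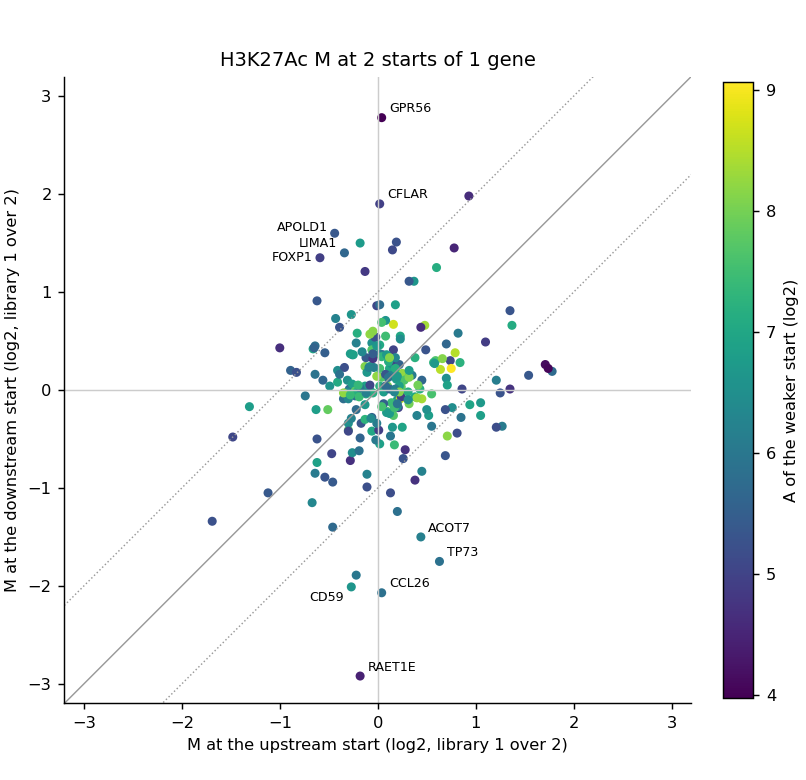
H3K27Ac M at the upstream start (x axis) and the downstream start (y axis) of 247 genes, as log2 of library 1 over library 2 from the authors' deposited table, coloured by A of the weaker start. Each point is a gene, the solid line marks equal M and the dotted lines a difference of 1; most points lie between the dotted lines, and 50 of all 249 compared genes differ by at least 1.

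Some members had an upstream start far above the downstream one. GPR56, an adhesion G protein-coupled receptor, had H3K27Ac levels of 609 and 592 in libraries 1 and 2 at its upstream start and of 41.4 and 6.02 at its downstream start. PXN, the focal adhesion adaptor paxillin, had 488 and 360 upstream and 31.1 and 19.97 downstream, and BTBD3 had 347 and 422 upstream and 19.97 and 32.9 downstream. RGS20, which turns off G protein signalling, had the opposite order, with 30.1 and 9.0 upstream and 815 and 699 downstream. RGS20 had the largest difference in A of the compared genes, 5.52 on the log2 scale.

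Other members were strongly marked at both starts. AHCY, the enzyme that hydrolyses S-adenosylhomocysteine, had levels of 692 and 412 upstream and of 609 and 523 downstream. LMNA, which encodes lamins A and C of the nuclear envelope, had 473 and 273 upstream and 498 and 383 downstream. BCAR1, an adaptor of focal adhesions, had 564 and 505 upstream and 521 and 327 downstream. In these 3 genes both starts were higher in library 1, and none of the 6 values of M reached 1. DIDO1, FAM110A and FRMD6 were also among the 6 genes with the highest lower A of the pair, which was 8.59, 8.52 and 8.37.

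In 19 members at least 3 starts, each at least 5000 bp from the next, reached the level of 30. Starts in this count can share peak values, as those of CFLAR at chr2:201997687 and chr2:202004997 did. SEPT9, a septin of the cytoskeleton, had 5 such starts over 193833 bp, with A between 7.47 and 7.88. In the authors' deposited table its 5 starts, in order from upstream, had H3K27Ac M of 0.48, 0.11, 0.04, 0.05 and 0.69. H3K9Ac was listed at all 5, and H3K4me3 only at the first, where its level was 105 in library 1 and 118 in library 2. PLEC, which encodes the linker protein plectin, had 4 separate starts with A between 8.29 and 9.54 and M between −0.08 and 0.40. The starts of SEPT9 were thus close in A, those of PLEC spread further in A, and in both genes M differed by under 1 between the starts.

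Of the 498 compared starts, 47 (9.44%) differed at least 2-fold between the libraries with a level of at least 30, beside 4.72% of all 13590 NM_ starts. Library 1 was higher at 28 (5.62%, beside 2.98% of all) and library 2 at 19 (3.82%, beside 1.74%). The pairs had been picked for differing M, so nothing is read from that excess. In 204 genes neither start reached 2-fold, in 43 a single start did, and in 2 both did with the same library higher. In no gene did the starts differ 2-fold in opposite directions. The 2 genes with both starts past the limit were named after their values were seen. CNTN1, the neural adhesion molecule contactin 1, had M of −1.69 upstream and −1.34 downstream in the authors' deposited table. GNAL, the olfactory G protein alpha subunit, had −1.12 and −1.05.

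Among the compared starts, the start that differed was usually the weaker one. A start was compared when its higher library reached the minimum level, so a start with A under 5 could enter by that library alone. Where a start had several peaks, the peak with the highest level in its higher library was taken. What part these rules have in the counts below was not tested. In the 243 genes whose starts differed in A, 11 of the stronger starts (4.53%) and 36 of the weaker starts (14.8%) were past 2-fold. Over all NM_ starts the share past 2-fold also fell with level, from 45.1% where A was under 5 to 12.3% at 5 to 6, 4.03% at 6 to 7, 0.857% at 7 to 8 and 0.307% at 8 or more. Of the 50 genes whose starts differed by at least 1 in M, the start of lower A had the M larger in size in 39. The M larger in size was upstream in 24 of the 50 and downstream in 26, and in 16 neither start was itself past the limit.

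Starts of different genes give a background for these differences. Among 5308 neighbouring NM_ starts of different genes, 5000 to 100000 bp apart and held to the same level, M differed by at least 1 in 11.2%, with a median difference of 0.37. Of the 200 member pairs within 100000 bp, 40 (20%) differed that much, and of the 164 members that had a single eligible pair, so that none was picked, 35 (21.3%) did. Where A of the weaker start was under 5 the shares were 57.1% of 21 member pairs and 53.6% of 407 neighbours. At 5 to 6 they were 30.3% of 76 and 15.4% of 1187, and at 6 to 7 they were 16.2% of 80 and 8.15% of 1903. At 7 to 8 they were 1.92% of 52 and 2.35% of 1444, and at 8 or more 5% of 20 and 1.09% of 367. Pairs with identical M were left out of the members and of the neighbours. Members with more than 1 eligible pair were compared at the pair of largest difference in M. These shares are side by side and not a test. Where A was under 5, the limit of 30 in the higher library sets part of them.

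Of the 12 genes with the largest differences in M, 10 are reported by their levels in each library. At the strongest peaks of all 10, the M larger in size was at the downstream start and M was under 1 in size upstream. This was unlike the near-even split of 24 and 26 over the 50 genes. The downstream start was higher in library 2 in 5 of them and in library 1 in 5. The upstream start was the stronger in 8, and in CCL26 and ACOT7 the downstream start was. Weaker second peaks at the upstream start were past 2-fold in GPR56 and in CD59, each in the direction of its downstream start. In GPR56 M was 1.22, with levels of 100 and 43.1, and in CD59 it was −1.11, with 18.1 and 39.0. With the peaks of each start averaged, the difference in M of GPR56 went from −2.74 to −2.15.

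**Figure D2:**
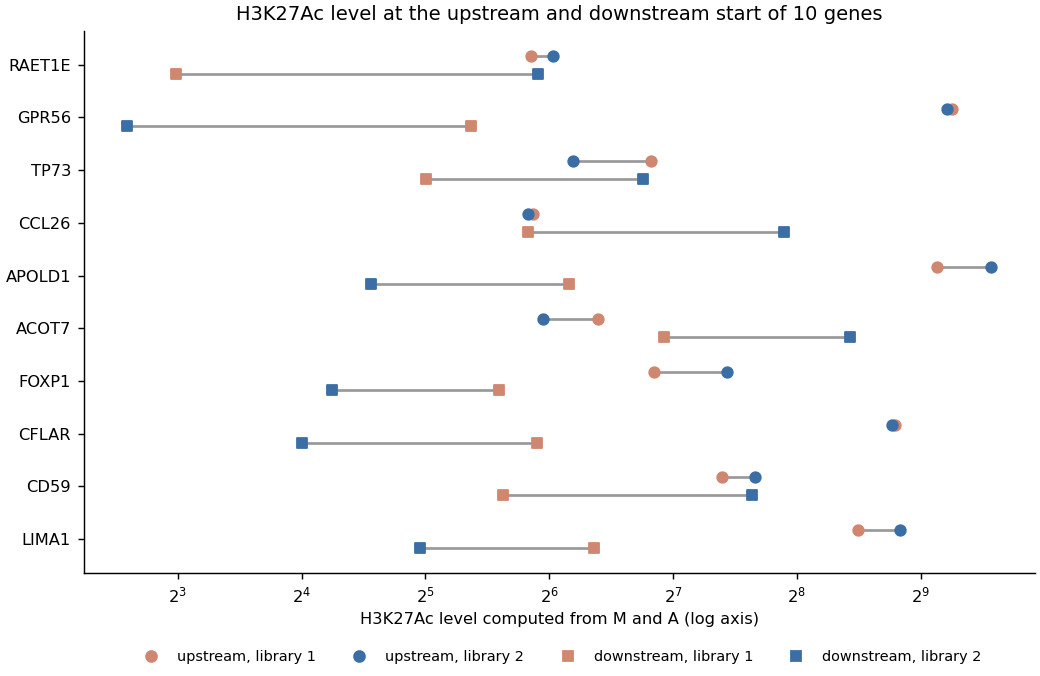
H3K27Ac level in library 1 and library 2 (x axis, log scale, computed from the authors' M and A) at the upstream start (circles) and downstream start (squares) of 10 genes. A line joins the 2 libraries of a start; in all 10 genes the line is longer at the downstream start, and in CCL26 it runs from 56.7 to 238 while the upstream values are 58.5 and 56.9.

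CCL26 encodes eotaxin-3, an eosinophil-attracting chemokine and a well-known target of IL-13 in esophageal epithelium. At its upstream start (hg19, chr7:75419064, minus strand) the H3K27Ac levels were 58.5 in library 1 and 56.9 in library 2. At its downstream start (chr7:75401572) they were 56.7 and 238. The libraries therefore differed at the downstream start alone, and M was 0.04 and −2.07 in the authors' deposited table. The authors' −log10 p was 0.37 upstream and 33.88 downstream. H3K9Ac gave levels of 16.7 and 21.0 upstream and of 4.71 and 34.9 downstream, so library 2 was higher at the downstream start in that mark as well. H3K4me3 was listed at neither start. With the peaks of each start averaged, the upstream start of CCL26 had a level of 27.2 and fell under the limit of 30, so CCL26 then had no compared pair.

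In CD59 and ACOT7 too the larger difference was at the downstream start, with library 2 higher there. At the upstream start of CD59 (chr11:33758025, minus strand) the H3K27Ac levels were 168 and 203, and at the downstream start (chr11:33744273) they were 49.4 and 199. The authors' deposited table gives M of −0.27 and −2.01 there, with a −log10 p of 1.01 and 26.33. With averaged peaks the difference in M of CD59 went from 1.74 to 1.32. The 2 starts of CD59 were alike in library 2 and 3.34-fold further apart in library 1. Neither H3K9Ac nor H3K4me3 was listed at the downstream start. ACOT7 had 83.9 and 61.8 at chr1:6445883 and 122 and 345 at chr1:6419004, both on the minus strand, with M of 0.44 and −1.50 and a −log10 p of 1.10 and 24.06. The most upstream start of ACOT7, at chr1:6453826, had 146 and 111, and of the starts of ACOT7 it alone was listed for H3K4me3, with levels of 57.3 and 62.2.

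In TP73, as in ACOT7, the libraries stood in opposite order at the compared starts. At the upstream start (chr1:3569128, plus strand) the H3K27Ac levels were 113 and 73.3, and at the downstream start (chr1:3614609) they were 32.1 and 108. The authors' deposited table gives M of 0.63 and −1.75. A second peak at the downstream start of TP73, equal in A at 5.88, had an M of −0.28, so the size of the difference depends on which peak is taken. With the peaks of each start averaged, the difference in M of TP73 went from 2.38 to 1.65. Another downstream start of TP73, at chr1:3607235, had levels of 5.96 and 17.0, under the limit of 30, and the isoform that begins at each start was not determined. H3K9Ac at TP73 had M of −0.26 upstream and 0.05 downstream, and thus differed by less than the 2-fold limit at both. TP73 RNA was 6.56 RPKM in control and 6.66 RPKM with IL-13 at 6 hr.

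RAET1E encodes a stress ligand of the NKG2D receptor of natural killer cells. Its H3K27Ac levels were 57.7 and 65.3 upstream (chr6:150217195, minus strand) and 7.94 and 60.1 downstream (chr6:150212170). The downstream start of RAET1E also had peaks with M of −0.56 and −0.71 and A of 4.67 and 4.82, weaker than the peak taken in its higher library. With the peaks of each start averaged, the difference in M of RAET1E fell from 2.74 to 1.22. Library 2 was thus the higher at the downstream start of RAET1E, whose level there was the lowest of the 5 reported genes with that order.

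In the other 5 genes library 1 was higher at the downstream start. FOXP1, a forkhead transcriptional repressor, had H3K27Ac levels of 115 and 173 at chr3:71632904 and of 48.3 and 19.0 at chr3:71180092, 452812 bp downstream on the minus strand. H3K9Ac at the downstream start of FOXP1 was 68.6 and 39.9, and H3K4me3 was 12.3 and 2, so library 1 was higher there in all 3 marks. At the third start of FOXP1 (chr3:71114074) the H3K27Ac levels were 35.1 and 36.9.

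APOLD1, which encodes an apolipoprotein L domain protein of endothelial cells, had levels of 560 and 760 upstream and 71.5 and 23.6 downstream. LIMA1, the actin-bundling protein eplin, had 360 and 455 upstream and 82.1 and 31.1 downstream. CFLAR, the caspase-8 inhibitor c-FLIP, had 443 and 437 upstream and 59.7 and 16 downstream, and with the peaks of each start averaged its difference in M went from −1.88 to −1.23. The downstream starts of these 3 genes and of GPR56 and FOXP1 all had an A under 6, where 12.3% (5 to 6) and 45.1% (under 5) of all NM_ starts were past 2-fold.

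The members were then described by lists of genes fixed for these cells. Of 46 genes that textbooks give as having alternative promoters and that had an H3K27Ac start, 17 (37.0%) were members, against 2.93% of all genes. The share was 10 of 47 (21.3%) for actin cytoskeleton and adhesion adaptors. It was 12 of 65 (18.5%) for transcription factors and 5 of 45 (11.1%) for chromatin regulators. It was 3 of 32 (9.38%) for IL-13 and type 2 epithelial genes, 2 of 34 (5.88%) for squamous epithelial genes and 1 of 49 (2.04%) for growth factor and kinase signalling. These lists name long, well-annotated genes, and how many starts a gene has in the annotation was not matched between them and all genes. The textbook list was chosen for alternative promoters, so its high share follows from how it was made. Only 400 of the 12785 genes had listed NM_ starts 5000 bp or more apart, and the others could not be members.

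Among the textbook genes, 10 had a compared pair, with a median difference in M of 0.27, and TP73 and MITF were past 1. MITF, the melanocyte and lysosome transcription factor, had H3K27Ac levels of 34.2 and 17.9 upstream and of 51.3 and 13 downstream. BCL6, a transcriptional repressor, had 116 and 154 upstream and 194 and 184 downstream. RARA, the retinoic acid receptor alpha, had 111 and 104 upstream and 97.3 and 114 downstream, and ERBB2, a receptor tyrosine kinase, had 86.2 and 100.4 upstream and 183 and 189 downstream. At the strongest peaks of BCL6, RARA and ERBB2 no start differed 2-fold between the libraries. Weaker second peaks at the upstream start did, with M of −1.41 in BCL6 and −1.35 in RARA in the authors' deposited table. Among the squamous genes LAMA3, the alpha 3 chain of laminin-332, had 137 and 121 upstream and 156 and 85.3 downstream. Among the chromatin genes NCOA7, a nuclear receptor coactivator, had 114 and 67.2 upstream and 113 and 128 downstream.

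H3K4me3 and H3K9Ac were not used to choose the members. H3K4me3 was listed at both compared starts in 159 of 249 genes (63.9%), at the stronger start alone in 62, at the weaker alone in 18 and at neither in 10. In the 6 genes of equal A the upstream start was counted as the stronger here and in the shares by A. Without those 6 it was at 88.5% of the stronger and 70.8% of the weaker starts, beside 94.9% of all 13590 NM_ starts. At like H3K27Ac levels a smaller share of the weaker starts than of all starts was listed for H3K4me3, in each of 5 ranges of A, without a test. The shares were 38.1% of 21 weaker starts and 73.3% of all where A was under 5, and 67.1% of 76 and 86.4% at 5 to 6. They were 73.8% of 80 and 95.0% at 6 to 7, 82.7% of 52 and 98.0% at 7 to 8, and 80.0% of 20 and 98.5% at 8 or more. Of the stronger starts 54.5% of 11 were listed at an A of 5 to 6, 85.2% of 54 at 6 to 7, 93.5% of 107 at 7 to 8 and 90.8% of 76 at 8 or more, and the 1 stronger start under 5 was not listed. H3K9Ac was listed at both starts in 220 genes (88.4%), and without those 6 at 97.5% of the stronger and 90.5% of the weaker starts, beside 98.3% of all.

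The share with H3K4me3 also differed by position. The mark was listed at 221 of 249 upstream starts (88.8%) and at 177 downstream starts (71.1%). Where the upstream start was the stronger for H3K27Ac, H3K4me3 was at 93.8% of 130 upstream and 60.8% of the downstream starts. Where the downstream start was the stronger, H3K4me3 was at 82.3% of 113 starts on each side. Of the 10 genes with the largest differences in M reported here, 7 had H3K4me3 upstream and 1, FOXP1, had it downstream. Of the 50 genes past a difference of 1, it was listed at 26 of the starts with the M larger in size and at 40 of the other starts. Of the 47 compared starts past 2-fold, 27 (57.4%) had it, beside 506 of 642 (78.8%) over all NM_ starts.

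The order of strength of a gene's starts was mostly shared between the marks. H3K9Ac gave the same order of A as H3K27Ac in 175 of 220 genes (79.5%), the opposite in 38 and a tie in 7. It gave the same order in 37 of 37 genes where A differed by at least 2 in H3K27Ac. H3K4me3 gave the same order in 112 of 159 (70.4%), the opposite in 41 and a tie in 6, and in 18 of 22 where A differed by at least 2. Across genes the differences in A had a Pearson r of 0.76 and a Spearman rank correlation of 0.77 with H3K9Ac (n = 220) and 0.47 and 0.54 with H3K4me3 (n = 159). These points are genes of the same 2 libraries per mark, so these values are descriptions.

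**Figure D3:**
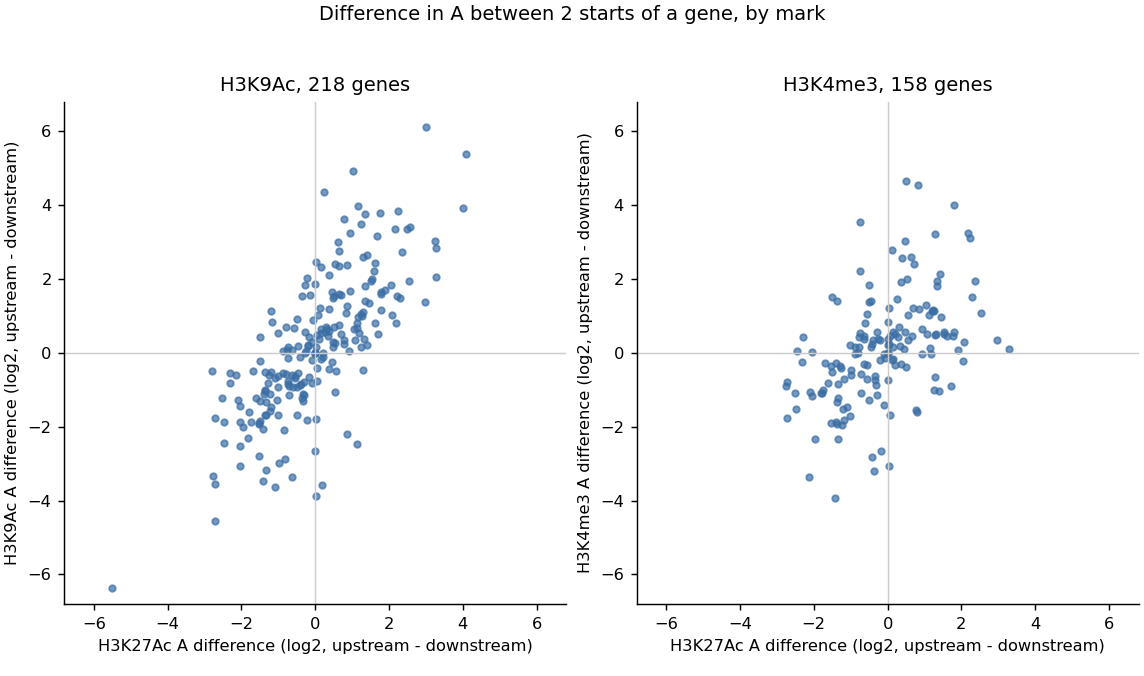
Difference in A between the upstream and downstream start of a gene (log2) in H3K27Ac (x axis) and in H3K9Ac (left, 218 genes) or H3K4me3 (right, 158 genes). Each point is a gene; points lie mostly at the lower left and upper right of the 0 lines, with the same order in 175 of all 220 genes for H3K9Ac and 112 of all 159 for H3K4me3.

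The signs of the differences in M were split more evenly between the marks. With the same library order assumed in each mark, the difference in M between a gene's starts had the same sign in H3K9Ac as in H3K27Ac in 115 of 220 genes, the opposite in 95 and was 0 in 10. Where H3K27Ac differed by at least 1 it had the same sign in 22 of 39, the opposite in 15 and was 0 in 2. For H3K4me3 the counts were 89 the same, 65 opposite and 5 at 0 of 159, and 13 and 10 of 23 where H3K27Ac differed by at least 1. Across genes r was 0.14 and the rank correlation 0.07 for H3K9Ac, and 0.24 and 0.13 for H3K4me3. Leaving out CCL26 and 1 gene not reported here took r to −0.01 over 218 genes for H3K9Ac. Leaving out the latter alone took r to 0.13 over 158 genes for H3K4me3.

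**Figure D4:**
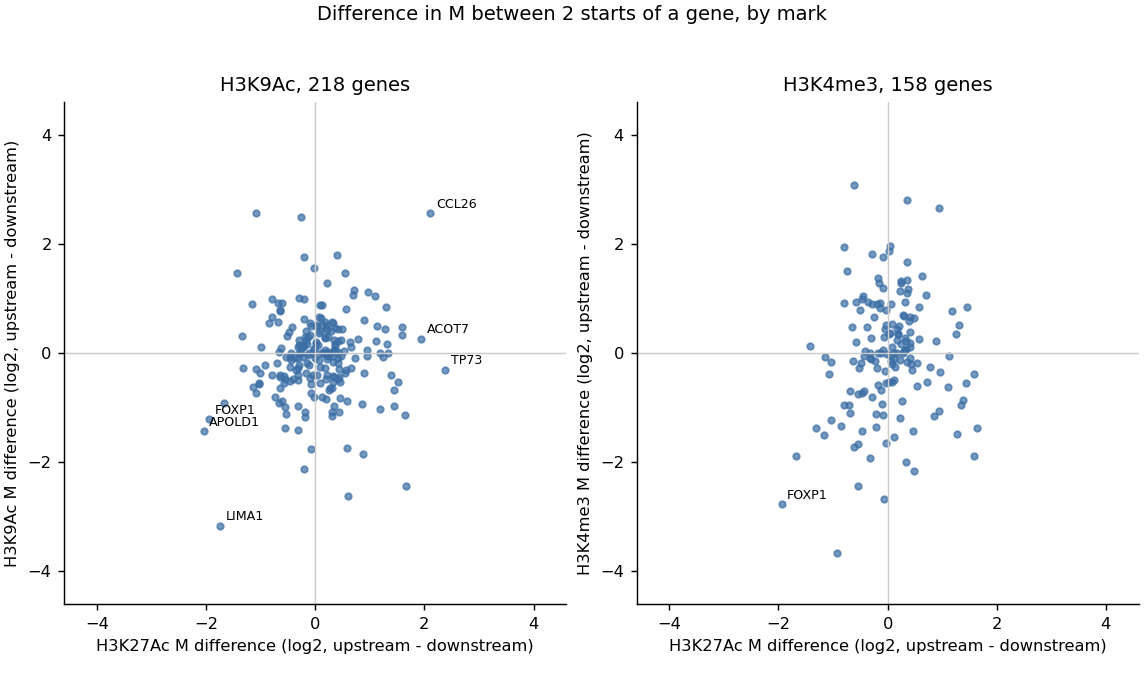
Difference in M between the upstream and downstream start of a gene (log2) in H3K27Ac (x axis) and in H3K9Ac (left, 218 genes) or H3K4me3 (right, 158 genes). Each point is a gene. Points spread to every side of the 0 lines, with CCL26 and LIMA1 far out in the same direction in H3K27Ac and H3K9Ac. The H3K9Ac levels of LIMA1 at its downstream start are low, at 11.6 and 1.

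In 12 genes the starts differed by at least 1 in M in both H3K27Ac and H3K9Ac, with the same sign in 6. The genes of the same sign reported here were CCL26, FOXP1, APOLD1, LIMA1 and FAM129B, and those of opposite sign were ANKRD28, ARHGAP27, ENKUR, PTPN3 and UNKL. For H3K4me3 there were 9 such genes, 6 of the same sign. Those reported here were FOXP1, ABL2, JMJD1C, SQSTM1 and SRPK2, and ARHGAP27, CAST and FAM213A were of opposite sign. FOXP1 was the only gene reported here in which all 3 marks differed by at least 1 in the same direction. Its H3K4me3 level at the downstream start was at most 12.3 and thus low. The H3K9Ac levels of LIMA1 at its downstream start, 11.6 and 1, were low as well. The genes of these 2 counts outside the largest H3K27Ac differences were named after their values were seen. Over all NM_ starts with a level of at least 30 in the mark, M was at least 1 in size at 8.36% of 11903 starts for H3K4me3 and at 3.83% of 13430 for H3K9Ac.

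RNA was measured per gene and cannot be divided between the starts. Of the 375 members 374 were in the RNA tables, and 332, 330 and 347 reached 1 RPKM in either library at 2, 6 and 24 hr. Counts are of genes with a 2-fold ratio of IL-13 over control after 0.1 was added to each RPKM, so the ratio of low genes is understated. At 6 hr 5 of 330 were higher with IL-13, beside 0.753% of all 11958 genes, and 0 were lower, beside 0.318%. At 2 hr 4 were higher (0.658% of all genes) and 0 lower (0.342%), and at 24 hr 6 were higher (0.886%) and 2 lower (1.27%). The median log2 ratio of the members was −0.01 at 2 hr, −0.01 at 6 hr and 0.00 at 24 hr, and that of all genes was 0.00, 0.00 and 0.02. The authors' deposited table gives an adjusted p under 0.05 to 0 of 374 members at 2 hr, 4 at 6 hr and 10 at 24 hr. It gives one to 3, 83 and 140 of all 23637 genes. Those values also rest on 1 library per group. The shares are not like for like, since 330 of the members but only 11958 of all genes reached 1 RPKM at 6 hr.

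The members higher with IL-13 were led by known IL-13 genes. CCL26 was at 5.41 RPKM in control and 23.2 RPKM with IL-13 at 2 hr, 6.27 and 54.8 at 6 hr, and 5.51 and 166 at 24 hr. CDH26, a cadherin of epithelial cells, was at 0.223 and 0.822 RPKM at 2 hr, 0.312 and 3.63 at 6 hr, and 0.210 and 10.8 at 24 hr. LIFR, the receptor of leukemia inhibitory factor, was at 1.74 and 4.83 RPKM, 1.59 and 7.18, and 7.08 and 22.1. The IL-13 library was the higher at all 3 times in these 3 genes. In bulk RNA, more cells that express a gene and more RNA per cell cannot be told apart. FNDC3A, a fibronectin type III domain protein, was at 8.51 and 18.6 RPKM at 6 hr. MECOM, a zinc finger transcription factor, was at 2.67 and 5.55 RPKM at 2 hr and 3.22 and 6.54 at 6 hr. CDH26, LIFR, MECOM and the genes of the next paragraph were named after their values were seen.

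At 24 hr PRR5L, which binds the kinase complex mTORC2, was at 1.38 RPKM in control and 3.04 RPKM with IL-13, and TMEM91 at 0.915 and 2.11. IL1RN, the interleukin-1 receptor antagonist, was at 19.8 RPKM in control and 7.52 with IL-13, and AKR1C2, a steroid-metabolising reductase, at 6.49 and 2.62. Of these 4 genes none had a compared pair, because only 1 start or no start reached the level of 30. At 6 hr, the time of the chromatin libraries, these 4 genes differed by less than 2-fold.

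**Figure D5:**
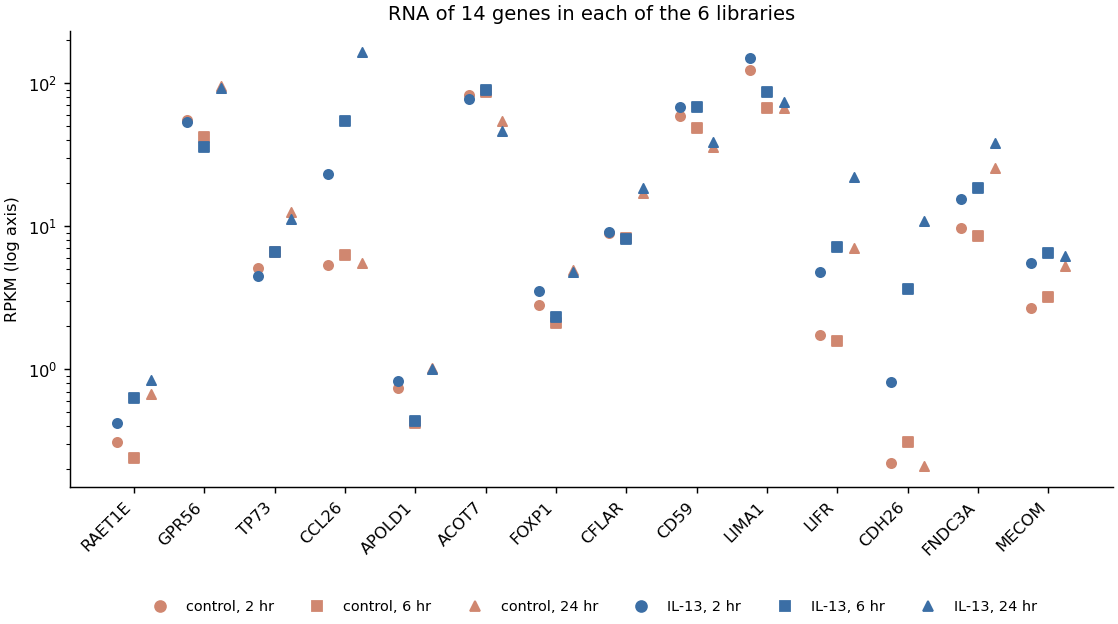
RPKM (y axis, log scale) of 14 members in control (orange) and IL-13 (blue) libraries at 2 hr (circles), 6 hr (squares) and 24 hr (triangles), with 1 library per point. CCL26, LIFR and CDH26 lie higher with IL-13 at each time, reaching 166, 22.1 and 10.8 RPKM at 24 hr, whereas control and IL-13 lie close together for TP73, ACOT7, CFLAR and FOXP1.

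The starts of the genes with higher RNA were not all alike. CDH26 had H3K27Ac levels of 39.1 and 193 in libraries 1 and 2 at its upstream start (chr20:58533470, plus strand) and of 4.96 and 12.04 at its downstream start, which is under the level of 30. H3K9Ac at the upstream start of CDH26 was 14.6 and 53.8. LIFR had 107 and 185 at its downstream start (chr5:38556748, minus strand) and 23.0 and 28.9 at its upstream start. In CDH26 and LIFR library 2 was the higher at both starts. MECOM had 116 and 115 at its upstream start and 218 and 318 at its downstream start, and FNDC3A had 179 and 210 upstream and 55.7 and 58.1 downstream.

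RNA differed little at most genes whose starts differed in H3K27Ac. Of the 50 genes with a difference in M of at least 1, 44 were expressed at 6 hr, with a median log2 ratio of 0.18 in size, and 2 differed at least 1.5-fold. Of those with a smaller difference 191 were expressed, with a median of 0.10 in size, and 5 differed at least 1.5-fold. CD59 was at 49.0 RPKM in control and 68.4 with IL-13 at 6 hr, LIMA1 at 66.7 and 87.6, ACOT7 at 86.5 and 89.9, and GPR56 at 42.0 and 35.7. CFLAR was at 8.22 and 8.13 RPKM and FOXP1 at 2.12 and 2.32. RAET1E and APOLD1 were under 1 RPKM in both libraries at 6 hr, at 0.239 and 0.632 and at 0.422 and 0.438. Among the 10 genes with the largest differences reported here, CCL26 was the only one with a 2-fold difference in RNA at 6 hr among those that reached 1 RPKM.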

How the data were processed

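Per the submitters' processing notes, RNA reads were handled with TopHat2 2.0.9 and DESeq and ChIP-seq reads with Bowtie 1.0.0 and MACS2 2.0.10.20130712, on hg19 (GRCh37). How reads were counted, which annotation was used and how peaks were assigned to starts were not given in the sources used here. Per the file headers, the authors deposited RPKM for each gene and RNA library, with a log2 ratio and with p-values before and after adjustment. For each mark they deposited M (a rescaled log2 ratio), A (a mean log2 level) and the −log10 of a p-value for each peak and start, per the file headers. The 6 columns of raw reads were not used, so the depth of the ChIP libraries is not given; that of RNA is unknown, since RPKM keeps no totals.

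From these values the level in library 1 and 2 was computed as 2 to the power of A plus and minus M/2. This takes the M and A of an entry to be of the same peak, which was not tested. Calling a start needed an M of at least 1 in size, with 30 or more as the higher level. Starts were upstream or downstream by the strand in the files, and a start was compared with another mark by the same gene, chromosome and position. RNA ratios used log2(RPKM + 0.1), for genes whose higher library reached 1 RPKM. Python 3.11.15, pandas 2.3.3, NumPy 2.4.6, SciPy 1.17.1 and matplotlib 3.10.9 were used, and the scripts were checked on simulated data. With 1 library in each group no test was made.

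The members, the gene lists and the limits were chosen with earlier results of these data known. The genes named were the 12 of largest difference in M, the 6 of largest difference in A, the 6 of highest lower A, up to 4 of each list by difference in M, those 2-fold different in RNA at 6 hr and those at the distance threshold, all among genes with a compared pair, and CCL26; others are marked as named after their values were seen. The rule also asked for genes called in opposite libraries, and there were 0. The results of 2 genes that the rule takes and of 1 gene list are not reported here, and both genes stay in every count over the members. Promoter windows are the 250 bases before the start, from RefSeq on GRCh38.p14. Other levels, limits and filters were tried as alternatives.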

Additional observations from a re-analysis of the deposited data

How the results depend on the processing

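No paired analysis was possible because each group has 1 library and the labels give no replicate numbers. Of 95 values recomputed under 16 settings, 72 stayed within 1.5 times the reported value or kept it, and the other 23 follow; the cause was not tested beyond the number of genes left. With a minimum level of 100 in place of 30, 127 genes were members, M differed at least 2-fold in 14 of 126, 0 had both starts called in the same library, the median difference in A was 0.565, and the upstream start was the stronger in 59. The sign of the M difference was then shared with H3K9Ac in 68 of 120 genes and with H3K4me3 in 56 of 90, and H3K4me3 was at both starts in 90. With no minimum level, M differed at least 2-fold in 120 of 368 genes, 6 had starts called in opposite libraries, 6 in the same, and the upstream start was the stronger in 205. With a limit of 1.5-fold these counts were 90, 4 and 10 for a difference, opposite libraries and the same library. With an authors' −log10 p of at least 5, 23 genes had the difference and 1 had both starts called in the same library. Among genes whose H3K27Ac M differed by at least 0.5 the sign was shared in 49 of 88 for H3K9Ac and 31 of 56 for H3K4me3. Chosen after seeing the data, a −log10 p of at least 5 at a start of the pair gave 19 of 32 and 8 of 15. A level of 30 in the other mark at both starts, also chosen after seeing the data, gave 53 of 99 for the H3K4me3 sign and left 99 of 249 genes with H3K4me3 at both. The count of opposite libraries is thus 0 at a limit of 2-fold with a level of 30 and above 0 with a lower limit or level. The share of starts past 2-fold rises as the level falls. Under an A of 5 the limit of 30 in the higher library sets part of that rise. With 1 library per group there is no measure of error. What part imprecision has in the rise was not tested.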
